A study of Mus musculus with 10 samples.

Results

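The forkhead (Fox) genes other than the FOXA genes and Foxh1 were followed as a family across the binding sites of OTX2 in 2 mouse cell states. Members were the genes whose symbol is Fox, 1 letter from b to s except h, and a number, and antisense (os) and Gm names were left out. The mouse gene table held 40 such genes in 17 subfamilies, among 21900 protein-coding genes with a position. Peaks belonged to a member when the authors' deposited table gave it as the nearest gene, which was so for 75 of 42711 peaks in definitive endoderm (DE) and 8 of 6319 in epiblast stem cells (EpiSCs). Members were picked by symbol and not by a measured value, though earlier results of these data were known.

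OTX2 is a homeodomain transcription factor of the early embryo, and the samples asked where it sits before and after endoderm formation. The binding assay was CUT&RUN, in which an antibody guides a nuclease to the target so that DNA around it is released and sequenced. All 10 samples were of the BL6/129 hybrid strain, with 500000 cells each. The tagged line, 7H OTX2-dTAG-EGFP, whose OTX2 carries the HA epitope, gave 2 HA and 3 IgG samples as EpiSCs and 2 HA samples and 1 IgG sample as DE, and the parental line 5.8 gave 1 HA and 1 IgG sample as DE. EpiSCs, a culture model of the epiblast, grew in N2B27 with Activin A at 20 ng/ml, FGF2 at 12.5 ng/ml and NVP at 175 nM. DE came from EpiSCs after 16 h in CDM with 40 ng/ml Activin A and 3 uM CHIR, then 24 h with 100 ng/ml Activin A and 100 nM LDN, and DE cells were sorted live. The tagged cells are 1 line, and both HA replicates of a state were pooled by the authors into 1 peak list. No value below therefore has a replicate spread, and every comparison is of 2 lists, not of conditions. The lists hold no expression, so cell identity could not be checked against marker genes.

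Forkhead factors share a winged-helix DNA-binding domain, and their subfamilies, marked by the letter after Fox, have separate tasks in the embryo. FOXO proteins are the nuclear arm of insulin and PI3K signalling, since AKT phosphorylates them and sends them out of the nucleus. FOXP proteins bind DNA as dimers and mostly repress. FOXC and FOXF genes and Foxl1, several of which lie in clusters, act largely in mesoderm and in the mesenchyme around the gut tube.

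Of the 25 members with a start listed in the RefSeq windows (GRCm38.p6), 2, Foxp1 and Foxp4, had a peak over a window of their own, and both peaks were in the DE list. In addition, peaks named for Foxo3 and Foxn3 covered the start of a predicted gene, Gm38485 inside Foxo3 and Gm51999 inside Foxn3. These 4 sites are shown because they are the family's peaks that overlap a start window of the RefSeq table. Each sequence is printed 5′ to 3′ on the strand of its gene, from 250 bases before the start through the first 30 transcribed bases, and capitals mark bases that a DE peak covers.
Foxp1 start, chr6:99520964-99521243, minus strand: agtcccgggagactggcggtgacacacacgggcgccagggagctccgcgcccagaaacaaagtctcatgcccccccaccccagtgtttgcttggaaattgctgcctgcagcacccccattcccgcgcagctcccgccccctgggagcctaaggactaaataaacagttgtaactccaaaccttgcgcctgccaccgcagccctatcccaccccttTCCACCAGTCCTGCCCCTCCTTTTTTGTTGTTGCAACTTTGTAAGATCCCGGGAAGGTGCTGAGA
Foxp4 start, chr17:47924603-47924882, minus strand: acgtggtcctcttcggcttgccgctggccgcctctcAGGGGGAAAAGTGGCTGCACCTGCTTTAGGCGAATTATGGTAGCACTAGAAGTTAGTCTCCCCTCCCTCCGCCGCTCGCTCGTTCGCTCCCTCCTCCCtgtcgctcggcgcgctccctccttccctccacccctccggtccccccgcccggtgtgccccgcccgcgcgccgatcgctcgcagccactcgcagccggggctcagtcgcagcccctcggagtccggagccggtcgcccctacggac
Gm38485 start in Foxo3, chr10:42273862-42274141, minus strand: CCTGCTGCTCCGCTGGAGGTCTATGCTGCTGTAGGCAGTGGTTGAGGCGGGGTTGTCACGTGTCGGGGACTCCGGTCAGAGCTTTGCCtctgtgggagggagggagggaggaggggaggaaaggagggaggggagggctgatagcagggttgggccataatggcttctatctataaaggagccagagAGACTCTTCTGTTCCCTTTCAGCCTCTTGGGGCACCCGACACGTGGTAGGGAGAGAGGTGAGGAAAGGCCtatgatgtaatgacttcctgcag
Gm51999 start in Foxn3, chr12:99391916-99392195, plus strand: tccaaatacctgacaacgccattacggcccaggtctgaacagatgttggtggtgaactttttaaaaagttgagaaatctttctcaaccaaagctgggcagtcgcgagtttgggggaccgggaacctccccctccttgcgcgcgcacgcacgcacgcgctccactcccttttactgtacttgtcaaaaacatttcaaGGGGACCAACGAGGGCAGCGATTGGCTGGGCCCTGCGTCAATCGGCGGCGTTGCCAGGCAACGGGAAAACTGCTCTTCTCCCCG
With the start base counted as 0, the Foxp1 peak covered position -35 to the last base of the 300-base window, 49, and ran on beyond it, with 85 of its 104 bases inside, and the Foxp4 peak ran from -214 to -117. At Gm38485 the same window held 88 bases of a Foxo3 peak of 91 bp and all of another of 70 bp, and at Gm51999 the Foxn3 peak of 88 bp lay whole within it. The TAATCC core that OTX2 and related homeodomains bind (GGATTA on the other strand) was in none of the 4 windows, which says only that these letters were not there.

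These RefSeq windows of 300 bases, 250 before to 50 after a start, numbered 28 for the 25 members. The TAATCC core was in the windows of 2 members, Foxn3 and Foxp3, against 7.06% of all 32851 windows. Neither of these matches lay under a peak of either list. They are shown as 30-base stretches with the core in capitals.
Foxn3 core motif, chr12:99450122-99450151, minus strand: gcttctttagtcTAATCCtgtctcccttct
Foxp3 core motif, chrX:7579578-7579607, plus strand: caaaaaaaaattGGATTAttagaagagcga
The Foxn3 match began 65 bases before a listed start inside the long Foxn3 gene, and the Foxp3 match 86 bases before its start. With the shorter core TAATC, which reads GATTA on the other strand and is contained in every TAATCC match, 5 members had a match against 22.0% of all windows. Across the family, a DE peak overlapped 2 of 28 start windows (7.14%, against 18.3% of all windows) and an EpiSC peak none of 28 (against 6.33%). The other 15 members had no window. Among them, Foxb1, Foxc2, Foxj1, Foxm1 and Foxo6 had a DE peak within 1 kb of a gene end. A peak at their starts could not be counted, so no difference between the family and all windows can be read from these 28.

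Peaks were named for 24 of the 40 members. In DE 23 members (57.5%) were the nearest gene of at least 1 peak, beside 52.3% of all protein-coding genes. In EpiSC 6 members (15.0%) were, beside 16.0% of all. By the authors' names, the share of members with a peak was thus near the background in both states. There were 18 members with DE peaks and no EpiSC peak (beside 37.1% of protein-coding genes), 5 with peaks in both lists (12.5%, beside 15.2%), and 1, Foxi3, with an EpiSC peak and no DE peak (2.5%, beside 0.817%). The mean number of DE peaks per member was 1.88 against 1.21 for all protein-coding genes, and both means were 0.2 in EpiSC. Foxp1 and Foxo3 held 27 of the 75 DE peaks, and the other 38 members held 48, a mean of 1.26. When peaks were given to the nearest protein-coding gene instead, these 38 members had 120 DE peaks, a mean of 3.16 against 1.95 for all.

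**Figure D1:**
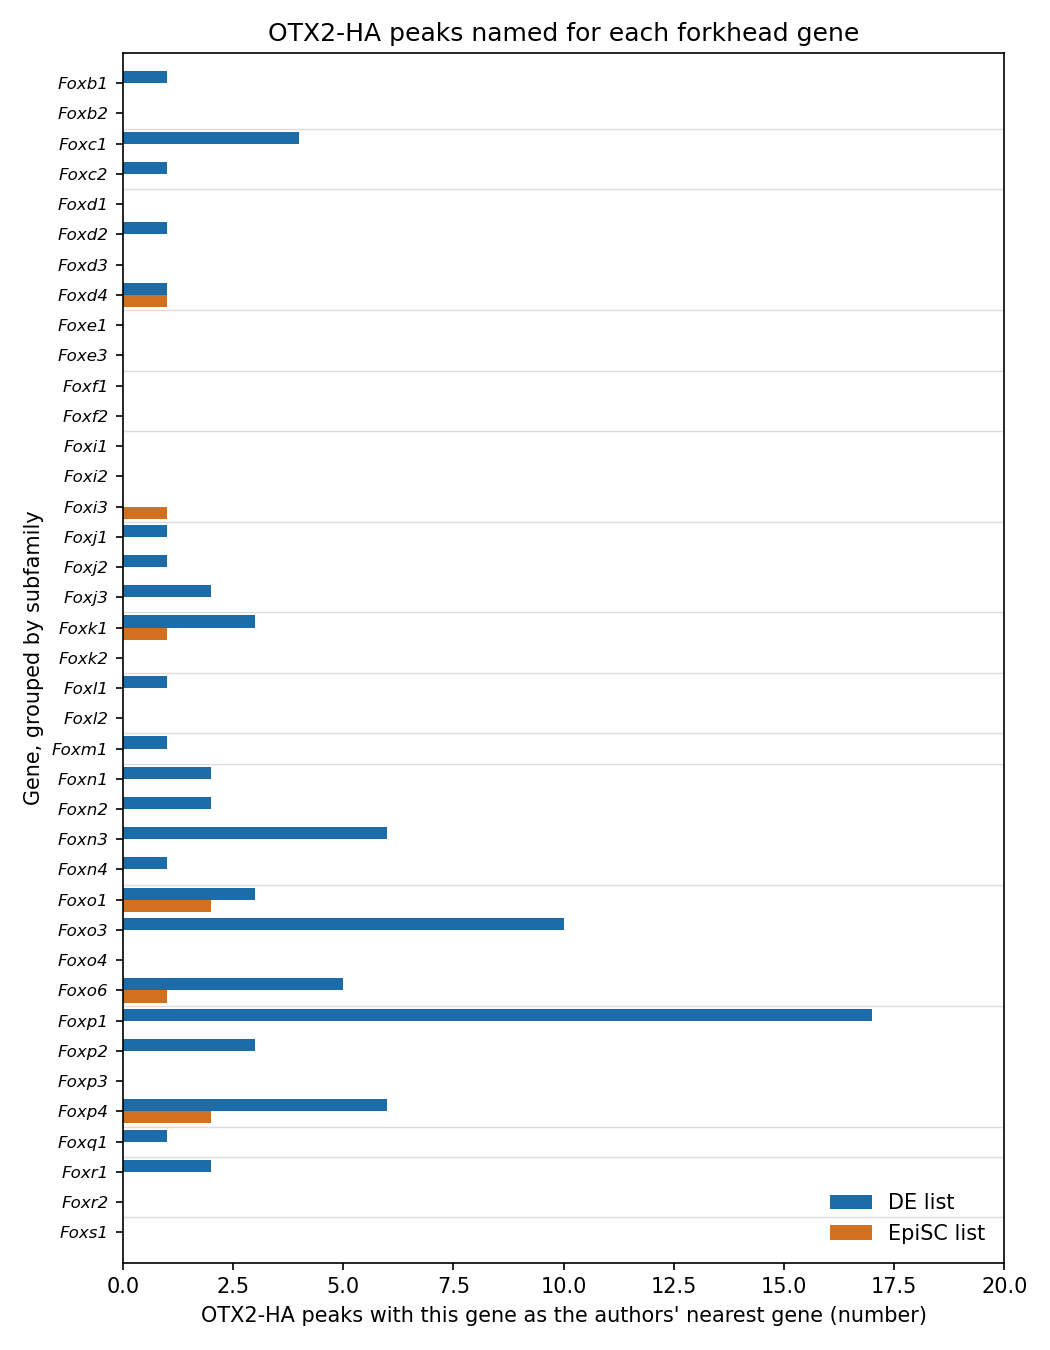
Number of OTX2-HA peaks (horizontal axis) whose nearest gene in the authors' table was each of 39 members, in subfamily order, for the DE list (blue) and the EpiSC list (orange). Foxp1 with 17 and Foxo3 with 10 DE peaks stand out, 6 members have an EpiSC bar, and 15 have no bar.

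No peak was named for 16 members (40.0%, beside 46.9% of protein-coding genes). Among these were Foxb2, Foxd1, Foxd3, Foxe1, Foxe3, Foxf1, Foxf2, Foxi1, Foxi2, Foxk2, Foxl2, Foxo4, Foxp3, Foxr2 and Foxs1. Their roles range widely, from Foxp3 of regulatory T cells, Foxl2 of the ovary and Foxe3 of the lens to Foxe1 of the thyroid, a gland that forms from endoderm. Their median gene length was 3.5 kb, against 20.3 kb for members with a DE peak.

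Gene length varied greatly within the family, from 1311 bp in Foxs1 to 597405 bp in Foxp1. The FOXO, FOXP and FOXN subfamilies hold 12 members, of which 10 had a DE peak, beside 52.3% of all protein-coding genes. Their median length was 53.6 kb, however, against 17.1 kb for all protein-coding genes. Among protein-coding genes close in length to each of the 12, from 44.4% (Foxo4) to 86.6% (Foxn3) had a DE peak. The 10 of 12 members can therefore not be read as raised beside 52.3%. Together these 12 members held 55 of the 75 DE peaks (73.3%, 95% Wilson interval 62.4 to 82.0%) and 85.2% of the family's summed gene length. Their grouping was not planned, and they form the subfamilies with the most DE peaks. Their share of peaks is therefore high by selection, and its interval takes no account of that. By name their share of peaks was below their share of length. Counted as DE peaks of any name inside gene bodies, an alternative chosen after seeing the data, they held 66 of 75 (88.0%, 78.7 to 93.6%), so the order depends on how peaks are counted. The other 28 members, with a median length of 3.5 kb, held 20 DE peaks. By subfamily, FOXP genes had 26 DE and 2 EpiSC peaks, FOXO genes 18 and 3, FOXN genes 11 and 0, FOXC genes 5 and 0, FOXJ genes 4 and 0, and FOXK genes 3 and 1. The FOXE, FOXF and FOXS subfamilies had none in either list.

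Peak counts were then set beside those of protein-coding genes of 80 to 125% of each member's length. Foxo3 was the member farthest above such genes: 22 of 1360 (1.62%) had 10 or more DE peaks. Foxo6, Foxc1, Foxp4 and Foxp1 followed, with 2.86%, 3.61%, 4.34% and 5.84% of genes of like length having as many peaks or more. For Foxp1 this was 8 of 137 genes. By the authors' names, Foxn3 (26.8%), Foxo1 (27.9%) and Foxp2 (55.4%) were unremarkable for their length. Given to the nearest protein-coding gene, DE peaks numbered 21 at Foxn3, 12 at Foxo1 and 3 at Foxp2. The comparison by length was not run on that count, so these places hold for the authors' names only. These percentages describe where the members stand and carry no test, since genes are not replicates.

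**Figure D2:**
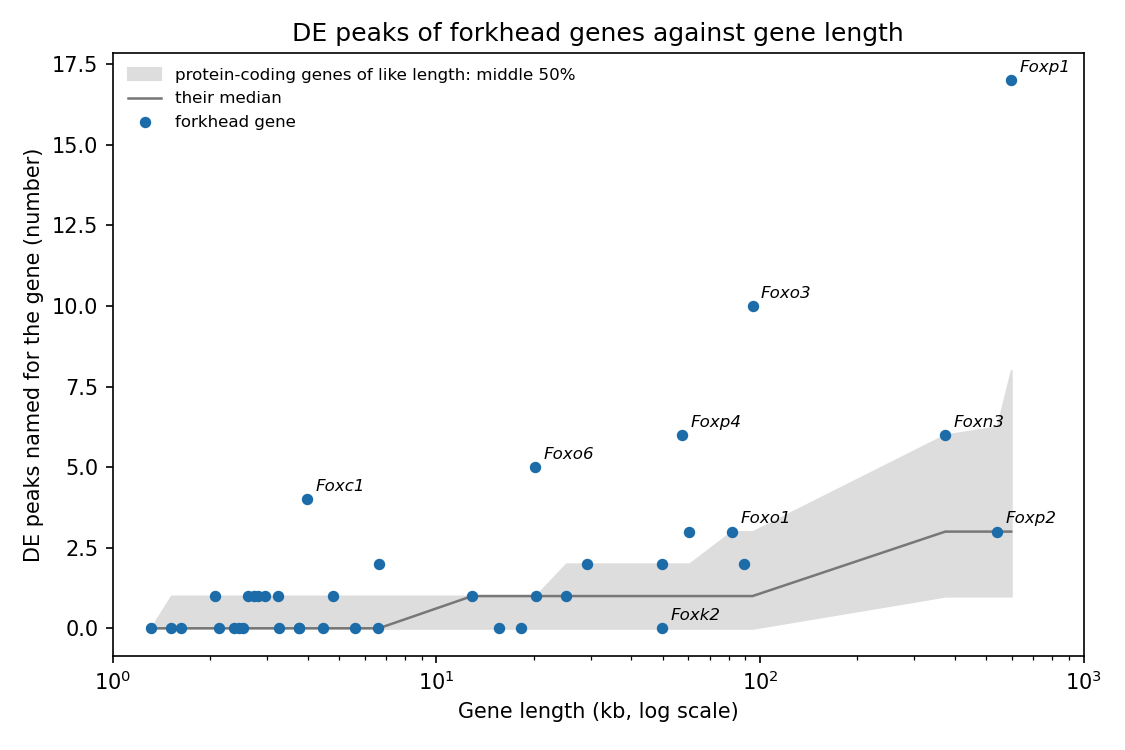
DE peaks named for 39 members (vertical axis) against gene length (horizontal log axis), with the median (line) and middle 50% (grey) of protein-coding genes of like length. Foxo3, Foxp1, Foxp4, Foxo6 and Foxc1 lie farthest above the grey band, and Foxp2 lies on the median at 3 peaks.

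The FOXO genes held 0 to 10 DE peaks each. Foxo3, a FOXO factor with roles in stress resistance and in holding back ovarian follicles, had 10 DE peaks (exact Poisson 95% interval 4.8 to 18.4) and no EpiSC peak, which allows up to 3. Of its 10 peaks 9 lay inside the gene (chr10:42181845-42276695) and were 63 to 264 bp wide. The remaining peak, chr10:42277562-42277928, lay 1050 bp outside the gene end nearest to it and at 367 bp was the widest of the family's DE peaks without an EpiSC counterpart. No EpiSC peak of any name lay within 50 kb of Foxo3.

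Foxo1, the FOXO member that sets glucose production in the liver, had 3 DE and 2 EpiSC peaks, all in a small group 10.4 to 14.1 kb left of the gene (chr3:52268337-52350109). The outer one was called from the same first base in both states, chr3:52254033-52254420 in DE (388 bp) and chr3:52254033-52254455 in EpiSC (423 bp). The inner pair of 75 bp in DE and 109 bp in EpiSC also overlapped, and a 71 bp peak between them was in the DE list alone. The outer EpiSC peak was the widest EpiSC peak of the family and was in the widest 2.82% of that list. Foxo6, an FOXO gene known from the brain, had 5 DE peaks and 1 EpiSC peak. Its DE peaks of 119 and 100 bp were inside the gene (chr4:120267078-120287261), another of 157 bp lay 734 bp beyond its right end, and a peak 14.4 kb to the left, 250 bp in DE and 98 bp in EpiSC, was shared. Foxo4 had no peak by name, and 1 DE peak of another name lay within 50 kb of it. The FOXO sites that both lists held thus lay outside the genes, at Foxo1 and Foxo6.

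Among FOXP genes, Foxp1, which acts in B cell, heart and lung development, had 17 DE peaks (9.9 to 27.2) and no EpiSC peak, which allows up to 3. At the ratio of the list sizes, 6.76, its 17 DE peaks would correspond to 2.52 EpiSC peaks. Of the 17, 16 lay inside the gene (chr6:98925342-99522746), 13 of them left of its midpoint and 3 right of it. Since RefSeq lists Foxp1 starts on the minus strand, the left part of the gene is its 3′ part. A further 4 DE peaks in the gene were named for other genes, and the longest stretch of the gene without a DE peak of any name was 188.3 kb. Foxp1 peaks were 74 to 262 bp wide, and 3 of them stood in a row between chr6:99173313 and chr6:99174151. Foxp2, the gene tied to speech and vocal learning, is 540.6 kb long and had 3 DE peaks (0.619 to 8.77), of 240, 105 and 265 bp. The Poisson intervals of Foxp1 and Foxp2 did not overlap although the genes are of similar length, with 3.35 and 0.555 DE peaks of any name per 100 kb of gene body. These intervals cover counting error only and treat peaks as independent, which neighbouring peaks are not.

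Foxp4, expressed in the foregut and lung, had 6 DE and 2 EpiSC peaks. Inside the gene (chr17:47867133-47924632), 4 DE peaks were packed into 2.7 kb, and both EpiSC peaks fell on members of this group. The widest, chr17:47887451-47887980, spanned 530 bp in DE, against 206 bp for its EpiSC counterpart, and was in the widest 0.885% of all DE peaks. The other shared peak measured 147 bp in DE and 139 bp in EpiSC. The sixth DE peak, chr17:47924749-47924846, was the one at the Foxp4 start shown above. Foxp3 had no named peak, while an EpiSC peak of 107 bp with another gene's name, without a DE counterpart, lay 4907 bp from it.

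**Figure D3:**
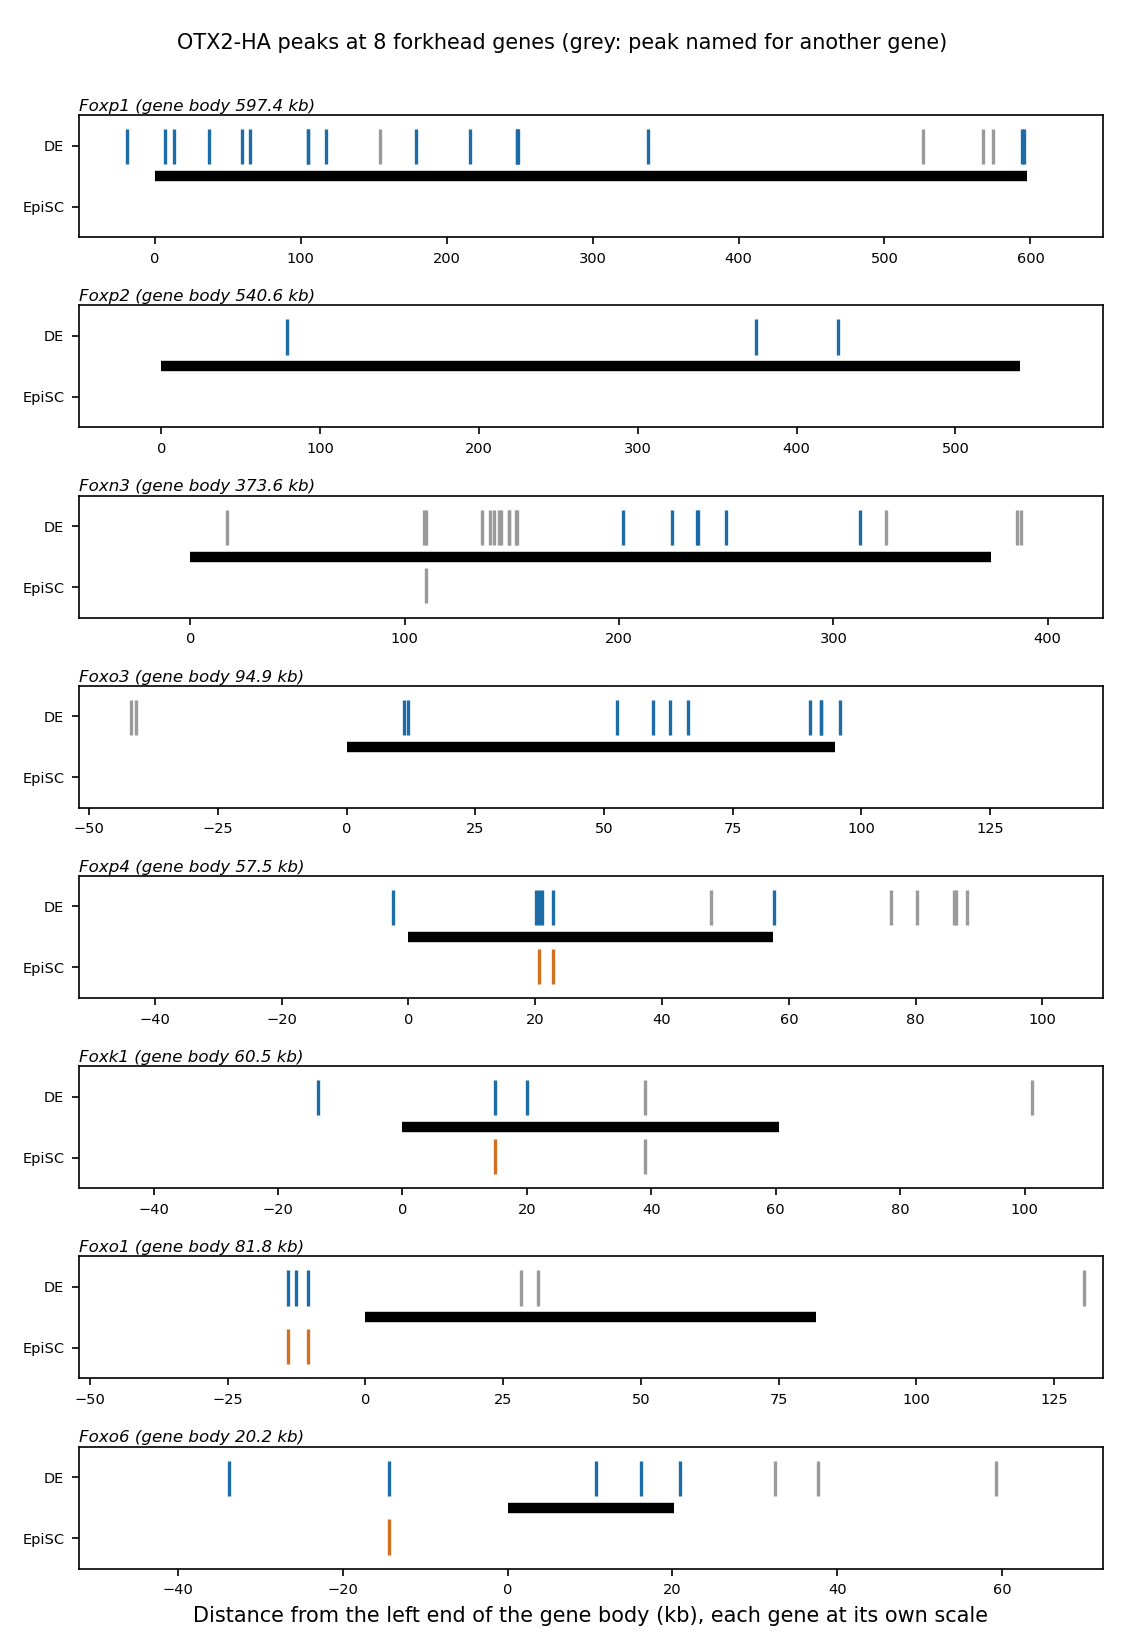
Positions of DE (upper) and EpiSC (lower) peak centres along 8 members, as distance in kb from the left end of the gene body (black bar), each at its own scale, with peaks of other names within 50 kb in grey. Foxp1 and Foxo3 have many DE ticks and no EpiSC tick, Foxn3 has a grey group near 140 kb, and the EpiSC ticks of Foxp4, Foxk1, Foxo1 and Foxo6 stand below DE ticks.

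All 4 FOXN genes had DE peaks by name and none had an EpiSC peak by name, while of genes of like length 53.6 to 86.6% had a DE peak and 16.6 to 21.5% an EpiSC peak. Foxn3 had 6 DE peaks (2.2 to 13.1) of 85 to 235 bp inside its 373.6 kb (chr12:99190081-99563667), all right of the gene's midpoint. The gene body held 19 DE peaks of any name, and 9 of these were named for 3300002A11Rik, 2 for Gm20682, 1 for Gm26839 and 1 for Gm28933. An EpiSC peak of 88 bp named for Gm20682, which a DE peak overlapped, also lay inside Foxn3. Counting by the authors' nearest gene thus left most of the DE peaks inside Foxn3 with other names. Foxn1, the gene of the nude mouse needed by thymic epithelium, had DE peaks of 150 and 176 bp inside the gene, and Foxn2 had DE peaks of 70 and 278 bp inside it. Foxn4, which acts in retinal and spinal interneurons, had 1 DE peak of 66 bp.

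Of the FOXK genes, Foxk1 had 3 DE peaks and 1 EpiSC peak, and Foxk2 had none. The shared Foxk1 site inside the gene was 424 bp wide in DE, chr5:142416211-142416634, and 159 bp in EpiSC. A second shared site inside Foxk1, 439 bp in DE and 196 bp in EpiSC, carried the name Ap5z1. Foxk2 had 9 DE and 2 EpiSC peaks within 50 kb, all outside the gene and named for BC017643, Narf or Wdr45b. The FOXJ genes had small DE peaks only. Foxj3 had peaks of 73 and 77 bp and Foxj2 1 of 65 bp inside the genes, and Foxj1, the master gene of motile cilia, had 1 of 114 bp whose centre lay 55 bp from the end of the gene. Foxm1, which drives genes of cell division, had 1 DE peak of 78 bp with its centre 55 bp outside the gene.

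Of the 8 members in genomic clusters, 5 had a DE peak by name and none had an EpiSC peak, beside 52.3% and 16.0% of all protein-coding genes. On chromosome 13, Foxq1, Foxf2 and Foxc1 lie within 252.5 kb (chr13:31558170-31810635), and this span with 50 kb on either side held 11 DE peaks and 1 EpiSC peak. Of these DE peaks 4 were named for Foxc1, which acts in paraxial mesoderm, vessels and the eye, 1 for Foxq1 and none for Foxf2. The Foxc1 peaks were 287, 155, 73 and 98 bp wide and lay at most 12363 bp from a gene end. A further 3 DE peaks to its left were named for Gm11379, among them chr13:31793397-31793872 with 476 bp. The single EpiSC peak, of 144 bp and named for Gm25186, was shared and lay between Foxf2 and Foxc1. The chromosome 8 cluster of Foxf1, Foxc2 and Foxl1, genes of mesenchyme and of lymphatic vessels, is 46.3 kb long and had 2 DE peaks with its flanks, 98 bp at Foxc2 and 135 bp at Foxl1, and no EpiSC peak. Foxd2 and Foxe3 on chromosome 4 had 1 DE peak with their flanks, 102 bp wide at the end of Foxd2 away from Foxe3.

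Among the remaining members, Foxd4 had 1 DE peak of 433 bp, chr19:24902244-24902676, that covered an EpiSC peak of 209 bp about 1.5 kb from the gene. Foxi3, a gene of the otic and other ectodermal placodes, had the family's single EpiSC peak without a DE counterpart, chr6:70964149-70964342, which was 194 bp wide and lay 3.2 kb from the gene. There was no DE peak within 50 kb of Foxi3. Foxb1, a gene of the hypothalamus, had 1 DE peak of 157 bp centred 102 bp from the gene, and Foxr1 had 2 DE peaks of 69 and 111 bp.

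Foxd3, which is needed in pluripotent cells and in the neural crest, had no named peak and no DE peak within 50 kb. An EpiSC peak named for Gm12688, chr4:99641954-99642427, lay 14.1 kb from it, was 474 bp wide and had no DE counterpart. At 94.6 kb a site named for Gm12690 was shared, with 452 bp in DE and 350 bp in EpiSC. Of the members without a named peak, 11 had a DE peak of another name within 50 kb. In all, 34 members (85.0%) had a DE peak within 50 kb, beside 82.8% of protein-coding genes, and 15 (37.5%) had an EpiSC peak, beside 40.8%. On this measure too the share of members was close to the background.

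Overlap between the states was next compared, with 1 shared bp as the minimum. Of the 8 EpiSC peaks of the family, 7 (87.5%, 95% Wilson interval 52.9 to 97.8%) overlapped a DE peak, against 78.8% of all EpiSC peaks. This share was 37.5% when the overlap had to cover 50% of both peaks, and 50% when only as many of the widest DE peaks were kept as the EpiSC list holds. Of the 75 DE peaks 7 (9.33%, 4.59 to 18%) overlapped an EpiSC peak, against 11.7% of all DE peaks. Under the same settings, 4.0% and 40.0% of the family DE peaks did. With 1 shared bp and all peaks, in both directions the value for all peaks lay inside the family's interval. The shared sites were at Foxd4, Foxk1, Foxo1 (2 sites), Foxo6 and Foxp4 (2 sites). The DE interval was the wider one at 5 of these 7 sites, the exceptions being both Foxo1 sites, and at 77.9% of the 5035 overlapping pairs in the whole lists.

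Shared DE peaks of the family had a median width of 388 bp and the other 68 DE peaks one of 113 bp. In the whole DE list these medians were 224 and 129 bp. The widths of shared family peaks ran from 75 to 530 bp, so they reached into the range of the others, 63 to 367 bp. The 4 widest DE peaks of the family, at Foxp4, Foxd4, Foxk1 and Foxo1, were all shared, and the fifth, at Foxo3, was not. All family DE peaks had a median of 119 bp against 138 bp in the list, and the 8 EpiSC peaks one of 176.5 bp against 141 bp. Width is a property of the authors' intervals and was not a measure of binding strength here.

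**Figure D4:**
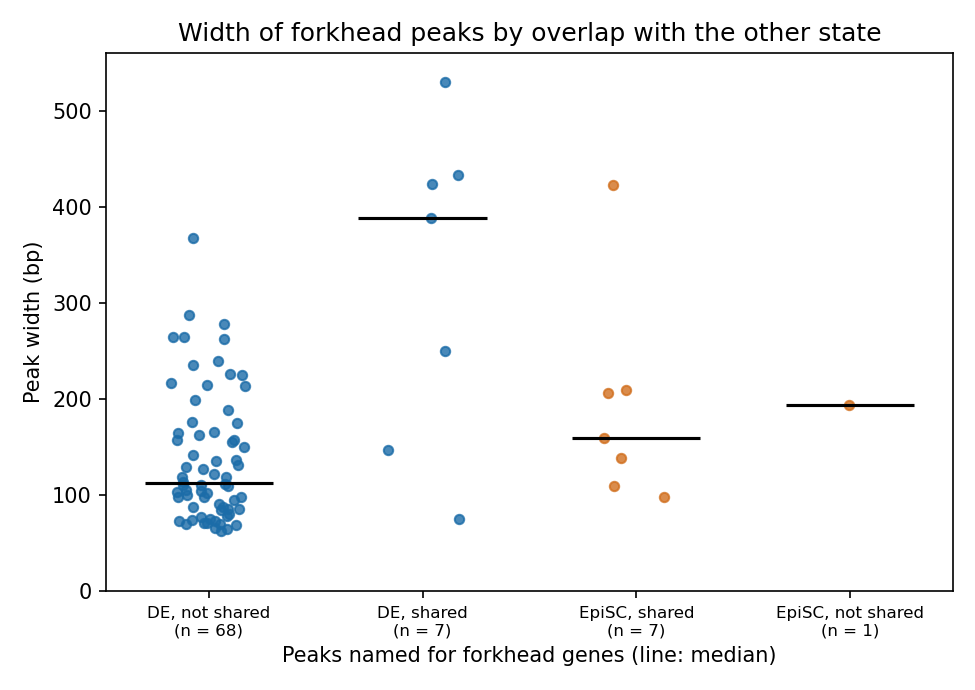
Width in bp of every peak named for a member, as points, for DE peaks without and with an overlapping EpiSC peak and for EpiSC peaks with and without an overlapping DE peak, where the line is the median. The 7 shared DE peaks have a median of 388 bp, and 3 of them lie below the widest of the 68 unshared ones, at 367 bp.

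Of the family's DE peaks, 52 of 75 (69.3%, 58.2 to 78.6%) lay inside the gene they were named for, against 41.1% of all DE peaks named for a gene of the table. Within 1 kb of a gene end lay 8 of 75 (10.7%, 5.5 to 19.7%), against 20.6%. For both shares the value for all peaks was outside the family's interval, which counts peaks of 1 gene as independent. The value for all rests on 35125 peaks, of which 26536 were named for protein-coding genes and the others for other kinds of genes. All members are protein-coding, so the sets are unlike, and shares for protein-coding genes alone were not computed. Without Foxp1 and Foxo3, 27 of 48 DE peaks (56.2%, 42.3 to 69.3%) lay inside the gene and 8 of 48 (16.7%, 8.7 to 29.6%) near a gene end, and the latter interval then included the value for all peaks. These 8 peaks belonged to Foxb1, Foxc1, Foxc2, Foxd2, Foxj1, Foxm1, Foxo6 and Foxp4, 1 each. None of the 8 EpiSC peaks was within 1 kb of a gene end, which allows a share of up to 37.5% (3 counts of 8). Of all EpiSC peaks named for a gene of the table, of any kind, 40.0% were. Another peak lay within 1 kb of 16 of the 75 (21.3%, 13.6 to 31.9%), against 16.6% of all. No family peak of either state overlapped a peak of the 3 EpiSC IgG samples or of the parental DE HA sample. Of all peaks, 0.0819% in DE and 0.791% in EpiSC did, and the counts of 0 of 75 and 0 of 8 allow shares of up to 4.0% and 37.5%, so nothing about the family can be read from them. IgG samples of DE were not analysed here, so the DE peaks were not compared with an IgG background of DE.

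Each member's share of the DE list was tested against its share of the EpiSC list with Fisher's exact test, two-sided, adjusted over the 19974 genes named in either list. No gene passed (0.0%), and no member had an unadjusted p under 0.05, as 220 of all genes did. The lowest member values were an exact p of 0.127 for Foxo1 (3 of the DE and 2 of the EpiSC peaks), 0.129 for Foxi3 (0 and 1) and 0.154 for Foxp1 (17 and 0), each with an adjusted p of 1.0. For Foxo3 (10 and 0) the exact p was 0.628. With no EpiSC peak, a gene needed 26 DE peaks for an unadjusted p under 0.05, so a gene with as many peaks as Foxp1 could not reach it. The test compares 2 lists and does not show that the members were bound alike.

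**Figure D5:**
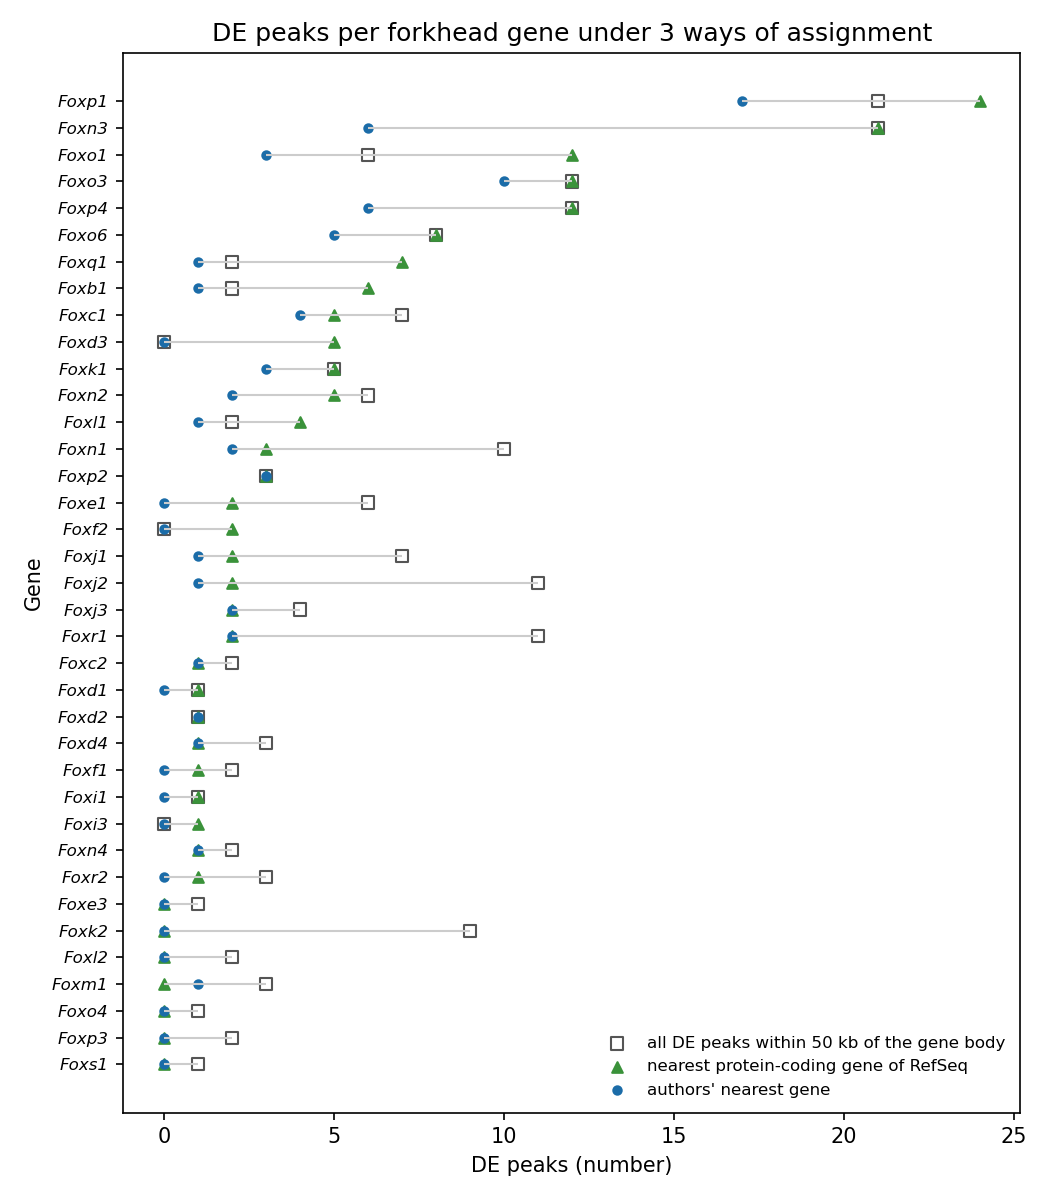
DE peaks per member (horizontal axis) by the authors' nearest gene (circles), by the nearest protein-coding gene of RefSeq (triangles) and by any peak within 50 kb of the gene body (squares), for 37 members with a value above 0 in either of the last counts. Foxn3 goes from 6 to 21 and Foxo1 from 3 to 12 by nearest protein-coding gene, and Foxp2 keeps 3.

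The way a peak was given to a gene moved several members. When each peak went to its nearest protein-coding gene, the family had 156 DE peaks, a mean of 3.9 against 1.95 for all, and 31 members (77.5%, against 59.7% of all) had at least 1. In EpiSC it had 17 peaks in 11 members (27.5%, against 20.7%). Foxp1 had 24 DE peaks on this count and still no EpiSC peak, Foxn3 had 21 and 1, and Foxo1 12 and 4. Foxq1 went from 1 to 7, Foxb1 from 1 to 6 and Foxd3 from 0 to 5, through peaks as far as 161.3, 97.8 and 125.7 kb away. Foxm1 went from 1 to 0. Most of these added peaks had carried a Gm or Rik name, such as B230323A14Rik with 5 DE peaks at Foxb1.

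Related genes and families were counted by the same names, and the shares of all protein-coding genes to set beside them are 52.3% with a DE and 16.0% with an EpiSC peak. Of the kin left out of the family, Foxa1 had 5 DE peaks, Foxa2 2, Foxh1 1 and Foxa3 none, and none of the 4 had an EpiSC peak. Among 19 Sox genes, 11 had DE peaks (48 in all) and 6 had EpiSC peaks (9), and among 6 Gata genes 4 had DE peaks (15) and none an EpiSC peak. The 14 genes of insulin and PI3K signalling that act upstream of FOXO had 50 DE peaks in 12 genes and 6 EpiSC peaks in 3. Pik3cb, a catalytic subunit of PI3K, had 9 and 3 and the kinase gene Sgk1 9 and 0, while Akt1 had none. These lists differ in gene length, with medians of 5.19 kb for the forkhead family, 4.79 kb for Sox, 24.1 kb for Gata and 84.7 kb for the signalling genes, so their counts are given side by side only.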

How the data were processed

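The members and gene lists were chosen with earlier results of these data known. Reads were processed by the submitters; their processing notes name Bowtie2 2.3.5.1, SAMtools 1.14, Picard 2.26.10, bedtools 2.30 and MACS2 2.2.6 and the build mm10, with no role or order. The authors deposited 1 table of HA peaks per state with chromosome, start, end and nearest gene, and no score, height or count; its intervals equal those of the deposited lists merged over 50 bp (42711 in DE, 6319 in EpiSC). How the nearest gene was found is not given in the sources used here, and depth is unknown. Columns marking genes as changed, and signal tracks, were not used here. Some genes of the lists are counted but not reported here by name.

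Positions were read as mm10 and set against RefSeq GRCm38.p6 (symbols, gene ends, start windows). The table gives no strand and 15 members had no window, so distances run from peak centres to the closer gene end, where distances to starts had been planned. Capitals mark bases under a peak instead of a motif, since no window under a peak held it. Shares have 95% Wilson intervals and counts per gene exact Poisson intervals, for counting error only; a count of 0 allows 3 counts. Fisher's exact test per gene was two-sided with Benjamini-Hochberg adjustment at 0.05. It was tried on simulated lists in which shares were raised in EpiSC only, so calls toward DE were not tried. The p-values compare 2 pooled lists; replicate spread could not be seen. Named were all members without a peak, members with an EpiSC peak and the 20 with most peaks, clusters within 200 kb, the 5 widest peaks of each list, EpiSC peaks without a counterpart and peaks at starts; other genes and peaks of other names near members were named after their values were seen. Tools were Python 3.11.15, pandas 2.3.3, numpy 2.4.6, scipy 1.17.1, statsmodels 0.14.6 and matplotlib 3.10.9.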

Additional observations from a re-analysis of the deposited data

How the results depend on the processing

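With 1 pooled list per state, no replicate could be left out. No paired analysis was possible because the replicates of each state were pooled into 1 list before deposition. Under 11 alternatives, 52 of 70 recomputed values stayed within 1.5 times the reported count, or within the 95% Wilson interval of the reported share, and 18 did not. Giving each peak to its nearest protein-coding gene changed the family's peaks from 75 to 156 in DE and from 8 to 17 in EpiSC, the members with an EpiSC peak from 6 to 11, and the share of DE peaks within 1 kb of a gene end from 10.7% to 4.49%. Counting all peaks within 50 kb gave 185 and 20 peaks, 15 members and 4.32%. When only the 6319 widest DE peaks were kept, the family had 10 DE peaks in 9 members, the shared share was 40.0% of its DE and 50% of its EpiSC peaks, and 0.0% lay within 1 kb of a gene end. Requiring an overlap of 50% of both peaks lowered the shared shares to 4.0% and 37.5%. A limit of 5 kb raised the share near a gene end to 26.7%. The shorter motif was found at 5 members instead of 2. Without Foxp1 and Foxo3, an alternative chosen after seeing the data, 48 DE peaks remained and 16.7% lay near a gene end. No member passed the threshold of the exact test under any of the 7 alternatives it was run with. Requiring peaks of at least 78 bp, dropping peaks more than 50 kb from the named gene or over background peaks, and counting peaks within 200 bp as shared kept every value within these limits, although the minimum width left 61 DE peaks in 20 members and 75% of EpiSC peaks shared. Depth was unknown for both lists and was not adjusted for.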

Other observations

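Several peaks near members carried other names. At Foxb1 a shared site named for B230323A14Rik lay 88.9 kb from the gene and spanned 532 bp in the DE list and 254 bp in the EpiSC list. At Foxo1 a further shared site lay 63.4 kb beyond the right end of the gene, 327 bp wide in DE against 308 bp in EpiSC, and an EpiSC peak of 86 bp without a DE counterpart lay 50.8 kb away. Foxo6 had a further 3 DE peaks named for its antisense gene Foxo6os. Foxe1 had 6 DE peaks within 50 kb and no EpiSC peak, 3 of them named for Trmo. Near Foxj2, a site of 370 bp in DE and 230 bp in EpiSC, named for Gm5112, was shared.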
